A study of Mus musculus with 40 samples.

Results

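Topological boundaries are 20 kb bins at which Hi-C, an assay of DNA contacts in the nucleus, shows that sequences on one side touch those on the other side less often than they touch their own neighbours. The boundaries described here are those of mouse chromosome 14 that were listed in one genotype and had no counterpart in the other. A boundary was taken when its start lay more than 20 kb from every start in the other genotype's list. The rule picked 458 of 933 listed boundaries: 162 of the 400 in wild type (40.5%) and 296 of the 533 in EACBE-/- (55.5%). The other 238 and 237 had a counterpart within 20 kb and are called matched. The members were chosen by the positions of the called boundaries in these same libraries, so these counts are a description and carry no test. The EACBE-/- list was the longer, and when the 400 highest scores were taken from each list, 188 wild-type boundaries (47.0%) and 191 EACBE-/- boundaries (47.8%) had no counterpart.

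The study deleted the CTCF binding site at Ea, the enhancer of the T cell receptor alpha gene Tcra, and asked about its role in Tcra rearrangement. Both Hi-C samples were thymocytes of C57BL/6 mice aged 4 to 8 weeks, one EACBE+/+Rag1-/- (called wild type here) and the other EACBE-/-Rag1-/-. Both lacked Rag1, and both sets of mice had received 150 µg of an antibody to CD3ε by injection at 3 weeks of age, with thymi taken 10 days later. Each genotype had 1 library, so genotype and library cannot be told apart for any boundary, and the labels do not say how many mice went into it. The lists hold no expression, so the thymocyte label could not be checked against marker genes, nor could the deletion itself be read from them. Repertoire samples that are used at the end came from thymocytes of other C57BL/6 mice of the same age range, EACBE+/+ and EACBE-/-, with 2 libraries per genotype; their labels give no Rag deletion and no CD3 stimulation.

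A chromosome folds into topologically associating domains, stretches that contact themselves more than their surroundings. CTCF is a zinc finger protein that binds a GC-rich motif and halts loop extrusion by cohesin, and many domain boundaries lie at its sites or at starts of active genes. Rag1 is part of the enzyme that cuts antigen receptor genes, so in its absence the V, D and J segments stay in germline order. Ea lies downstream of the constant gene Trac and drives Tcra transcription and rearrangement in double-positive thymocytes.

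Promoters of 3 genes picked from member bins are shown as examples. Only 9.26% of wild-type and 10.8% of EACBE-/- member bins held a gene start, and a promoter is a small part of its 20 kb bin. The sequences are the 250 bases upstream of the gene start, 5′ to 3′ on the gene's strand, from RefSeq on GRCm38.p6. Fbxo34, an F-box protein gene, had the only member promoter with the first CTCF core searched, CCNNN directly followed by AGGGGGC. Esd, which encodes esterase D, and Gzmg, a granzyme gene of killer cells, lay in the highest-scoring member bin of each list that was over 100 kb from the other list and held the start of a named protein-coding gene. Capitals mark the core in Fbxo34, and CCCTC or its reverse complement GAGGG, the pentamer at the heart of many CTCF sites, in the others.
Fbxo34: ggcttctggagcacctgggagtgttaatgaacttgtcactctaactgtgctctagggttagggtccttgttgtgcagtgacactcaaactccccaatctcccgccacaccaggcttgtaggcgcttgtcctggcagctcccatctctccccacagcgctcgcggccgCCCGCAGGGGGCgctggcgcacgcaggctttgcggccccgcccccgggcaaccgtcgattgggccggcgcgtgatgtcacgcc
Esd: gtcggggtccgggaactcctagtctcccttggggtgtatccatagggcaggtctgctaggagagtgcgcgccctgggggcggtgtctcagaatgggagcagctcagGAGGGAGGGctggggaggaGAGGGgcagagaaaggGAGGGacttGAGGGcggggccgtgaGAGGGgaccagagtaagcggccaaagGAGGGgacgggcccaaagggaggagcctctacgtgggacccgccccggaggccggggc
Gzmg: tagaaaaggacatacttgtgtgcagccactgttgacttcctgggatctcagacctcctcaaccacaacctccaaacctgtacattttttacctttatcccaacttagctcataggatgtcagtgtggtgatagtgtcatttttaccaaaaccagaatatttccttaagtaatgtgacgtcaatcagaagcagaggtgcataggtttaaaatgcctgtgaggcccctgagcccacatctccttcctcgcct
The Fbxo34 promoter (chr14:47472311-47472560, plus strand) was in an EACBE-/- boundary with a score of 0.535, 100 kb from the nearest wild-type boundary. The Esd promoter (chr14:74732047-74732296, plus strand) was in a wild-type boundary with a score of 0.772, 300 kb from the nearest EACBE-/- boundary, and held 7 pentamers. The Gzmg promoter (chr14:56159580-56159829, minus strand) was in an EACBE-/- boundary with a score of 0.721, 180 kb from the nearest wild-type boundary, and held 0.

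Few member promoters carried a CTCF core, and few did anywhere. Searched on both strands over the 300 bases from 250 before to 50 after each start, that core was in 0 of 18 promoters in wild-type member bins and 1 of 48 in EACBE-/- member bins. It was in 13 of the 1358 promoters of chromosome 14 (0.957%) and in 422 of 32851 in the genome (1.28%). The other core searched, CCANN directly followed by AGNNGGC, was in 0 member promoters, in 3 of 79 promoters in matched wild-type bins and 2 of 78 in matched EACBE-/- bins, against 1.18% of chromosome 14 promoters. The pentamer was in the 250 upstream bases of 29 of 66 member promoters (43.9%) and of 58.2% on the chromosome. These letters in a promoter window say nothing of CTCF sites elsewhere in the 20 kb bins, for which no genome sequence was used.

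Boundaries listed in one genotype had the lower scores of both lists. The score is the authors' own value per boundary, has no stated unit, and starts at 0.3, the threshold named in the list headers. What a higher score stands for is not stated in the sources used here. The 162 wild-type members ran from 0.301 to 3.06 with a median of 0.399, and 82 of them (50.6%) lay between 0.3 and 0.4. The 238 matched wild-type boundaries had a median of 0.634, with 17.2% between 0.3 and 0.4. In EACBE-/- the 296 members ran from 0.3001 to 1.35 with a median of 0.412, 129 of them (43.6%) below 0.4, and the matched median was 0.682, with 14.8% below 0.4. High scores were rare among members: 9 in wild type and 4 in EACBE-/- reached 1, against 45 and 60 matched boundaries.

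The same bin also scored differently in the 2 libraries, which gives a yardstick for scores near the threshold. At 132 bins listed in both, the median score was 0.655 in wild type and 0.757 in EACBE-/-. EACBE-/- was higher at 87 of them and wild type at 45, and the median absolute difference was 0.118, with an SD of the differences of 0.258. The SD is widened by single bins such as 6940001, with 0.664 in wild type and 2.71 in EACBE-/-. Shared bins also had higher median scores than the members, so the yardstick comes from bins mostly farther above the threshold. Of the members, 94 in wild type (58.0%) and 154 in EACBE-/- (52.0%) had scores within 0.118 of the threshold. Within 1 SD of the threshold lay 137 (84.6%) and 244 (82.4%). For those, a shift in score of the size seen at shared bins would span the distance to the threshold; whether they fell just short of it in the other library was not tested, because the lists give no score for a bin that was not called.

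**Figure D1:**
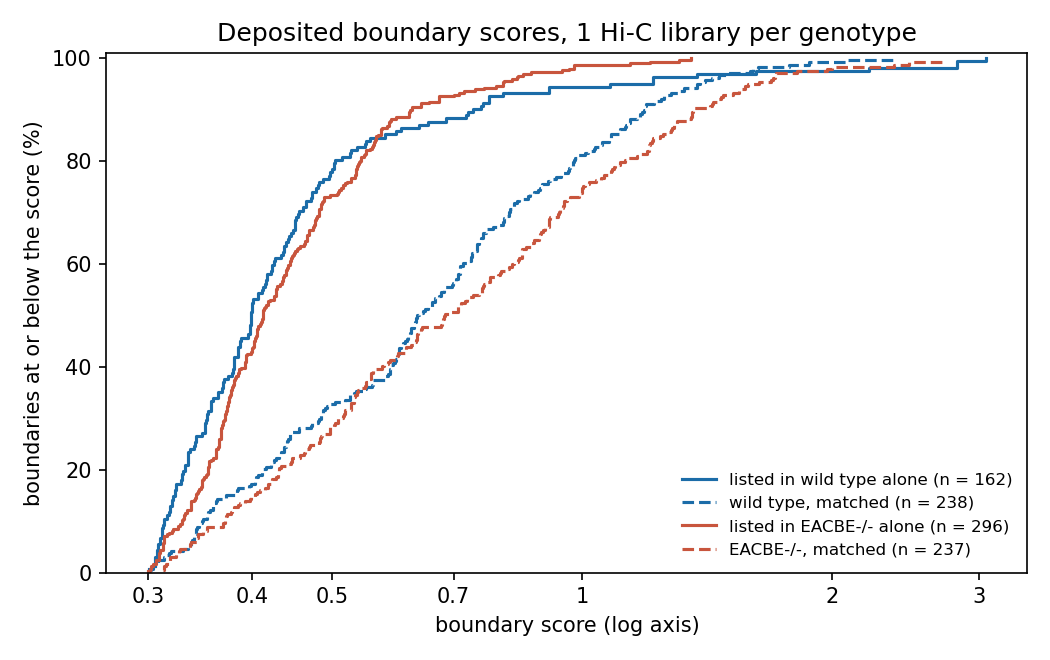
Scores of the boundaries listed in one genotype and of those matched within 20 kb, by genotype. The horizontal log axis gives the boundary score without a unit, and the vertical axis the percent of boundaries at or below it. Member curves rise at lower scores, with medians of 0.399 and 0.412, against matched medians of 0.634 and 0.682.

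The distance at which a boundary counts as unmatched decided many members. Just outside the limit, at 40 kb from the other list, lay 40 wild-type members (24.7%) with a median score of 0.446 and 42 EACBE-/- members (14.2%) with 0.423. Just inside it, at 20 kb, were 106 wild-type boundaries with a median of 0.619 and 105 EACBE-/- boundaries with 0.587. At the far end, 19 wild-type members (11.7%) and 97 EACBE-/- members (32.8%) lay more than 200 kb from the other list. With the 400 highest scores of each list these shares were 30.3% for wild type and 33.0% for EACBE-/-. Scores hardly changed with distance: the medians of the farthest members were 0.398 and 0.405.

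Some members faced each other across a small gap. Of the 40 wild-type members at 40 kb, 25 had an EACBE-/- member as the nearest boundary, which made 25 pairs of members that lay 2 bins apart. The highest-scoring pair was chr14:43120001-43140000 in wild type (score 1.22) and chr14:43160001-43180000 in EACBE-/- (1.35). The next lay near Tbc1d4, a regulator of glucose transporter traffic, at chr14:101420001-101440000 in wild type (1.08) and chr14:101380001-101400000 in EACBE-/- (1.31). Another pair stood at Cldn10, which encodes a claudin of tight junctions, with 0.728 in wild type and 0.849 in EACBE-/-. Of the 10 highest-scoring members, 2 in wild type and 3 in EACBE-/- belonged to these pairs. Matching within 40 kb in place of 20 kb left 122 and 254 members.

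**Figure D2:**
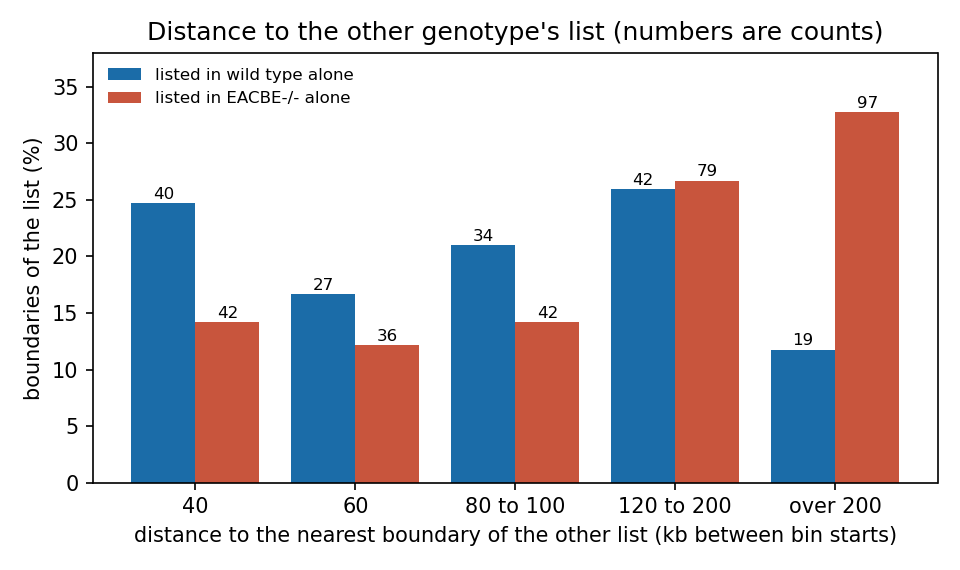
Members by distance from the nearest boundary of the other genotype (horizontal axis, distance in kb; vertical axis, percent of the genotype's members). In the full lists, which differ in length, 24.7% of wild-type members lie at 40 kb and 32.8% of EACBE-/- members beyond 200 kb.

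Equal scores tied neighbouring boundaries together. Where consecutive boundaries of a list had exactly the same score they formed a run, and every run held 2 bins. Wild type had 60 runs, of which 26 consisted of members alone, 20 had 1 member and 14 none. EACBE-/- had 80 runs, of which 51 consisted of members alone, 16 had 1 member and 13 none. Members stood in runs more often than matched boundaries did, 72 of 162 (44.4%) against 48 (20.2%) in wild type and 118 of 296 (39.9%) against 42 (17.7%) in EACBE-/-. The bins of a run are therefore no separate measurements, and with each run counted once the members came to 116 in wild type (34.1% of its list) and 229 in EACBE-/- (50.6%). In that count a run with a matched bin was taken as matched. This left out the 20 wild-type and 16 EACBE-/- runs with 1 member, so the lower shares rest partly on that choice.

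Most such runs were tight. In the 26 wild-type runs of members the starts were 20 kb apart in 15, 40 kb in 10 and 60 kb in 1. In the 51 of EACBE-/- they were 20 kb apart in 24, 40 kb in 20, 60 kb in 6 and 80 kb in 1. The widest run of members alone, in EACBE-/-, was at Nalcn, the gene of a sodium leak channel of neurons, with bins from 123540001 and 123620001 and a score of 0.365. Wild-type runs with 1 member reached 100 kb, at 107580001 and 107680001 (score 0.301), and 80 kb, at the ribonuclease genes Ang5 and Ang6 (score 0.755). Some high-scoring members were the outer bin of a run whose other bin was matched: 51820001 in wild type (1.37, with 51860001) and 41200001 in EACBE-/- (1.21, with 41240001). Median scores in and out of runs were 0.389 and 0.407 in wild type; in EACBE-/- they were 0.401 and 0.429.

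The distal part of the chromosome, from 80 Mb on, held more members and fewer matched boundaries per Mb than the part below it. Below 80 Mb lay 79 wild-type and 137 EACBE-/- members, 1.04 and 1.81 per Mb, with 2.25 matched boundaries per Mb in either list. From 80 Mb on, wild-type members came to 1.86 per Mb (83 boundaries) and EACBE-/- members to 3.57 per Mb (159), while matched boundaries were at 1.53 and 1.504 per Mb. The share of the list without a counterpart was thus 31.7% below and 55.0% above in wild type. For EACBE-/- it was 44.6% and 70.4%. With 400 boundaries from each list the shares were 39.8% and 58.9% in wild type. The corresponding EACBE-/- shares were 37.1% and 63.2%. The limit of 80 Mb was set after the counts per window had been seen.

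Window by window this did not always hold: the window from 100 Mb had the most wild-type members, 24, beside 21 matched wild-type boundaries. In the last window, from 120 Mb, 23.8% of the wild-type and 39.1% of the EACBE-/- list had no counterpart. Both shares were below those of the part under 80 Mb. The highest unmatched shares were in the window from 80 to 90 Mb, which held 18 wild-type and 44 EACBE-/- members beside 5 and 6 matched boundaries. In it 78.3% of the wild-type and 88.0% of the EACBE-/- list had no counterpart. The bodies of 5 annotated protein-coding genes overlapped it, and 3.60% of its bins held a gene start. From 70 to 80 Mb wild type had more members than EACBE-/-, 17 against 9, which was otherwise so only in the first window, with 8 against 6. Median scores of members were 0.399 on both sides of 80 Mb in wild type and, in order, 0.425 and 0.406 for EACBE-/-. The matched medians were 0.700 below and 0.547 above in wild type; in EACBE-/- they were 0.777 and 0.537.

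**Figure D3:**
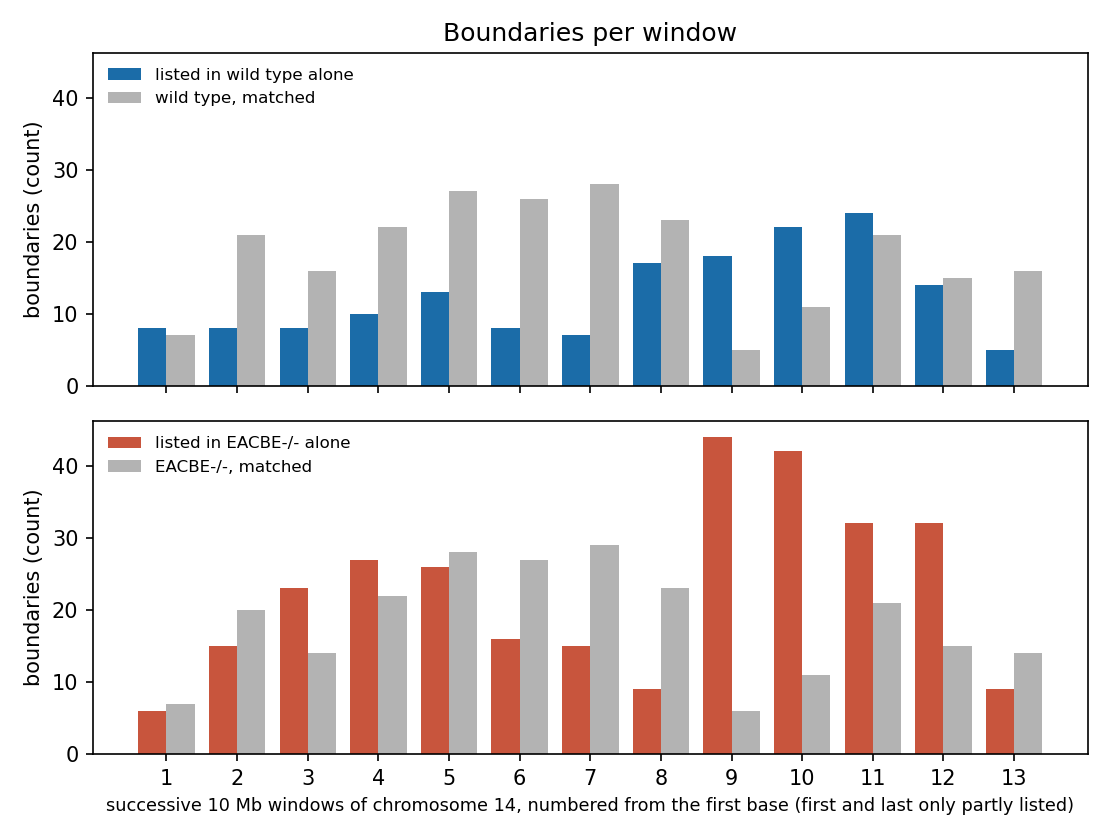
Boundaries per 10 Mb window of chromosome 14, members and matched, by genotype. The horizontal axis numbers the windows from the first base, and the vertical axis gives the number of boundaries. EACBE-/- members peak at 44 in window 9, from 80 Mb, where matched boundaries fall to 6.

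Member bins held few gene starts. An annotated start lay in 15 of 162 wild-type member bins (9.26%) and 32 of 296 EACBE-/- member bins (10.8%), below the 15.4% of all 6012 bins and the 21.8% and 22.8% of matched bins. Bins of the same 10 Mb windows, weighted as the members were spread, held a start in 13.7% for wild type and 12.9% for EACBE-/-, values between those of the members and of the whole chromosome. Below 80 Mb the shares were 15.2% of wild-type and 18.2% of EACBE-/- members against 20.3% of all bins. Above it they were 3.61% and 4.403% against 6.96%. Protein-coding starts alone were in 8 wild-type bins (4.94%) and 21 EACBE-/- bins (7.09%), against 10.1% of all bins.

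**Figure D4:**
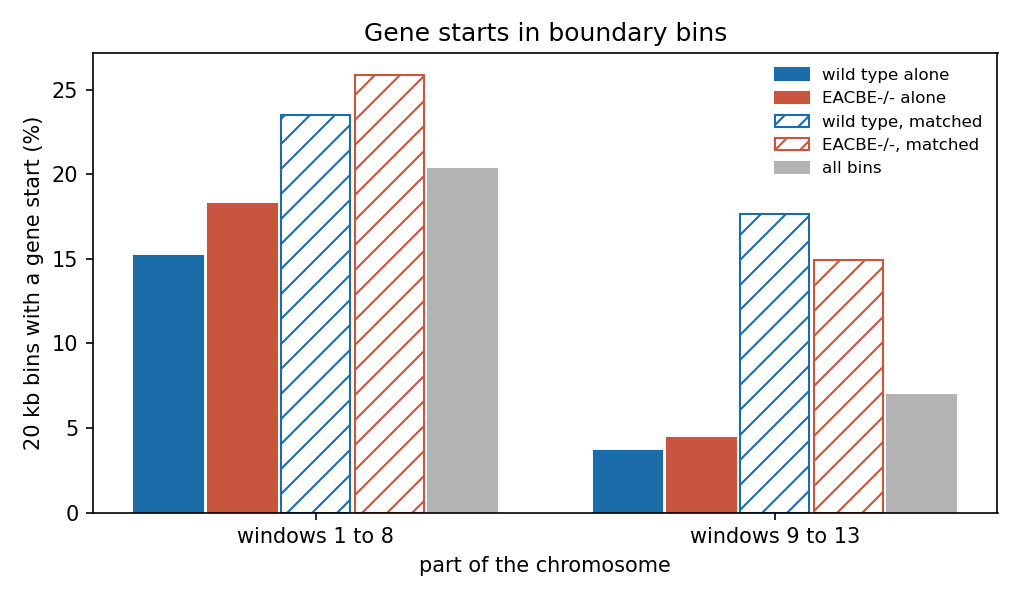
Percent of bins that hold an annotated gene start (vertical axis), for members, matched boundaries and all bins. The horizontal axis gives the part of chromosome 14, below 80 Mb and from 80 Mb on. Below 80 Mb members lie at 15.2% and 18.2%, under the 20.3% of all bins, and matched boundaries at 23.5% and 25.9%. From 80 Mb on members lie at 3.61% and 4.403%, under 6.96%, and matched boundaries at 17.6% and 14.9%.

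Long genes held many of the EACBE-/- members. The 15 protein-coding genes of at least 500 kb held 46 EACBE-/- members (15.5%) and 14 wild-type members (8.64%), against 4.22% and 4.62% of matched boundaries and 11.5% of all bins. Grid1, the gene of a delta glutamate receptor subunit, held 7 EACBE-/- members with scores from 0.303 to 0.403 and no wild-type member. Nrg3, which encodes a neuregulin growth factor, held 5 in EACBE-/- and 0 in wild type, with scores from 0.348 to 0.533. Gpc5 and Gpc6, which encode heparan sulfate proteoglycans of the glypican family, held 5 each in EACBE-/- and 2 and 1 in wild type. Not every long gene leaned that way: the fragile-site gene Fhit held 4 in EACBE-/- and 3 in wild type, and the protocadherin gene Pcdh9 held 3 of each. These genes and the length of 500 kb were singled out after the counts were seen. Each bin of a run was counted separately here, although the bins of a run are no separate measurements. Most members in Grid1 and in Nrg3 stood in runs. The counts per gene come from the full lists, which differ in length, and were not repeated with lists of equal length.

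Gaps between neighbouring wild-type boundaries were searched as well, again in the full lists and with each bin of a run counted separately. This recounts the same members, so an overlap with the long genes, as at Grid1, is no separate support. The fullest, from 34820001 to 35880000 over Grid1, held 12 EACBE-/- members in 1.06 Mb with a median score of 0.403 and a highest of 0.573. A 2.16 Mb gap from 27800001 to 29960000 held 10, with a median of 0.386 and a highest of 0.474. It spans Erc2, a gene of the presynaptic active zone, Wnt5a, a secreted signalling ligand, and Cacna2d3, a calcium channel subunit gene. The 3 EACBE-/- members farthest from any wild-type boundary lay there, the first of them at 28860001, 1060 kb away, and the next, at 68960001, lay elsewhere, 800 kb away with a score of 0.587. Pcdh17, a protocadherin gene, lay in a 1.32 Mb gap with 7 members, the highest at 0.823. In the opposite direction no gap held more than 5 wild-type members: one of 0.68 Mb over Pcdh8 and Olfm4 with scores up to 0.407, and one of 0.4 Mb from 109080001 with no protein-coding gene, with scores up to 0.514.

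Of 6 gene lists that were looked up in and next to the member bins, the developmental genes, which also covered the most bins, had the most hits. Genes of that list, 18 on the chromosome, lay in or next to 8 wild-type (4.94%) and 16 EACBE-/- members (5.41%), against 2.94% and 2.95% of matched boundaries and 3.86% of all bins. Of these members, 6 in wild type and 13 in EACBE-/- lay at 3 of the long genes, Pcdh9, Gpc5 and Gpc6. Wnt5a was in an EACBE-/- member with a score of 0.403, and Bmp4, a bone morphogenetic protein gene, was next to one with 0.312. Slitrk6, a neuronal membrane protein gene, was next to a wild-type member with 0.401. Genes of the list drawn up for lymphocyte signalling and survival, 32 in all, were at 1 wild-type member (0.617%) and 3 EACBE-/- members (1.01%). The shares were 4.20% and 3.38% for matched boundaries and 2.81% for all bins. The 1 in wild type was Il17rd, a receptor-like gene that restrains growth factor signalling (score 0.504). Egr3, a transcription factor induced by T cell receptor signals, was in an EACBE-/- member with 0.429. Fam107a, on the list as drawn up though its role in lymphocytes was not checked, was at the other 2, with 0.367 and 0.362.

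The remaining lists are small and cover few bins. Of 15 killer and mast cell proteases, Gzmg was in an EACBE-/- member, with Gzmd, Gzme and Gzmn in the next bins. That member was the only one at this list, 0.338% of the EACBE-/- members against 0.316% of all bins. Of the 15 ribonuclease genes, Ang5 was in a wild-type member (0.755) and Rnase2a in an EACBE-/- member (0.317), which made 0.617% and 0.338% of members against 0.449% of all bins. The 42 olfactory receptor genes were at 3 members of each list, 1.85% in wild type and 1.01% in EACBE-/-, against 1.21% of all bins and 1.68% and 2.11% of matched boundaries. Olfr722 and Olfr724 were in the wild-type ones, with 0.359 and 0.330, and 2 EACBE-/- members, with scores of 0.521 and 0.562, held Olfr727 with Olfr728 and Olfr745 with Olfr746.

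The highest-scoring members lay in bins with few characterised genes, as did many members with lower scores. Of the 10 highest in wild type, 4 bins held no gene and 6 held only predicted genes, pseudogenes or genes with provisional names such as 2610042L04Rik. In EACBE-/- the split was 3 and 5, and the other 2 held Nek4, a kinase gene, at chr14:30960001-30980000 (score 0.868, 240 kb from wild type) and Cldn10. The highest of all, chr14:41640001-41660000 in wild type, scored 3.06 and held no gene. A run at chr14:4320001-4340000 and chr14:4360001-4380000 scored 2.83. It lay at 2610042L04Rik, 2580 and 2540 kb from the first EACBE-/- boundary. The bin chr14:6800001-6820000 followed with 2.22, and the 10 ended at chr14:73060001-73080000 with 0.912, 10.9 kb from the leukotriene receptor gene Cysltr2.

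The highest in EACBE-/- included the 43 Mb region as well. Beside chr14:43160001-43180000 (1.35), a member at 43280001 scored 1.14, and a run at 43840001 and 43860001 over the pseudogenes Ear-ps12, Ang-ps2 and Ear-ps9 scored 0.978. A member at chr14:41200001-41220000, 14.8 kb from the surfactant protein gene Sftpd, scored 1.21, one at 81660001 with no gene scored 0.964, and one at 51540001 scored 0.945. Wild-type members of that region, at 43100001 and 43120001, were a run at 1.22. At the low end, members sat just above the threshold: wild-type bins in Synpr (0.306) and Lrmda (0.304) and at 107680001 (0.301), and EACBE-/- bins in Grid1 (0.303), Fhit (0.302) and Hs6st3 (0.3001).

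At the Tcra and Trd locus, whose enhancer carries the deleted site, wild type alone had 2 members and EACBE-/- had 0. Between Trav1 and the end of Dad1, the gene downstream of Ea, the wild-type members were one run at chr14:53800001-53820000 and chr14:53840001-53860000 with a score of 0.324. They were 100 and 140 kb from the nearest EACBE-/- boundary. Trav17 (53806639 to 53807115) lay in the first bin, Trav19 (53845322 to 53845827) in the second and Trav18 between them. Both bins were near the threshold of 0.3, and at the locus list's 211 genes the share of members, 1.23% in wild type, was below the 1.73% of all bins.

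Matched boundaries flanked the pair. On its left were boundaries at 53680001 in wild type (0.588) and 53700001 in EACBE-/- (0.517). On its right both genotypes listed 54060001 at Trdv4, with 0.437 in wild type and 0.632 in EACBE-/-. Next to Ea itself, the boundary at Dad1 and Abhd4 was matched, from 54240001 in wild type (1.30) and 54260001 in EACBE-/- (1.24). The members thus ended 364 kb before the end of Trac (54224198). No EACBE-/- member lay within 1 Mb of Trac; the nearest were 2664 kb to the left, at 51540001, and 1916 kb to the right, at the Gzmg bin.

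**Figure D5:**
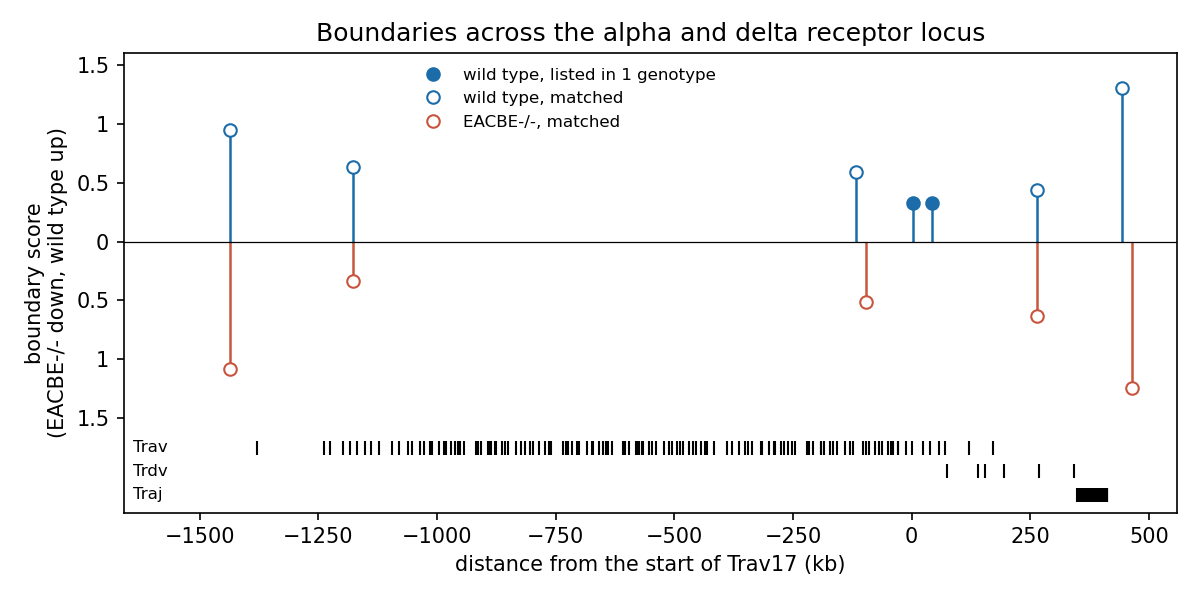
Boundary scores across the Tcra and Trd locus (vertical axis, score without a unit, wild type upward and EACBE-/- downward; horizontal axis, distance from the start of Trav17 in kb; ticks, V and J segments). The 2 filled points are the wild-type run at 0.324; all other boundaries there have a counterpart in the other genotype.

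Use of the segments in that run was measured in the repertoire libraries, as the share of all Tcra counts. Trav17 had 1.36% (145 of 10694 counts) and 0.962% (1658 of 172388) in the wild-type replicates and 0.231% (44 of 19085) and 0.263% (431 of 163953) in the EACBE-/- replicates. Its Wilson 95% intervals, which cover counting error only, were 1.15% to 1.59% and 0.917% to 1.01% in wild type, and 0.172% to 0.309% and 0.239% to 0.289% in EACBE-/-. The genotypes did not overlap, at 1.16% ± 0.279 and 0.247% ± 0.0229 (SD, n = 2). With 2 libraries per genotype such a gap can arise by chance, and the share of Tcra segments that show one is not given here. Trav19, in the other bin of the run, had 1.56% and 1.47% in wild type, and EACBE-/- had 1.41% and 1.37%. The Trav19 replicate values did not overlap between genotypes either, but the fold between its means was 1.09 against 4.70 for Trav17. Its Wilson intervals overlapped between genotypes, at 1.34% to 1.81% and 1.41% to 1.52% in wild type against 1.26% to 1.59% and 1.31% to 1.42%. Trav21-dv12, just beyond the run, had 1.66% and 2.34% in wild type, and EACBE-/- had 2.17% and 3.15%, so the groups overlapped. Trav18, Trav13-5 and Trav20 were not listed in these tables. In the Trd libraries Trav17 was listed in replicate 2 alone, with 33 counts (0.117%) in wild type and 37 (0.0785%) for EACBE-/-. Trav19 was likewise listed there in replicate 2 alone, with 19 counts (0.0676%) in wild type and 11 (0.0233%) for EACBE-/-, so in Trd the fold was the greater for Trav19, 2.90 against 1.497. No test was made, since Trav17 was known from earlier results of these data to differ, and the Hi-C and repertoire mice differed both in Rag1 and in the CD3 antibody treatment.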

How the data were processed

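Of 40 samples, 10 were used: 2 Hi-C libraries and, for the segments in member bins, 4 Tcra and 4 Trd repertoire libraries. Trb tables, chromatin immunoprecipitation and 4C samples were not used here. Samples were grouped by the genotype in their labels. The members and all lists were chosen with earlier results of these data known.

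The deposited boundary lists give 20 kb bins of chromosome 14 on mm10 with one score each, called in each library separately; per the file headers the settings were is 120001, ids 40001, ss 1 and a threshold of 0.3. Not given in the sources used here are the caller, what the score means and the number of contacts behind each list, and thus the depth of the Hi-C libraries; a deeper library could list more or fewer boundaries. The authors deposited repertoire tables of whole-number counts of V against J segments, with totals of 10694 to 172388 in Tcra; they do not say if each count stands for 1 read or 1 receptor. The tools, per the submitters' processing notes, were Juicer 1.13.02, HiC-Pro 2.11.1, bedtools 2.26.0, cutadapt 0.4.4 and Bowtie2 in versions 2.20.8 and 2.3.4.3, on mm10; the role of each is not stated.

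Starts were compared between lists, and equal scores of consecutive boundaries were called runs (checked on simulated lists). Gene bodies and 1358 promoters of 1092 genes came from RefSeq tables of GRCm38.p6, which are not complete. Coordinates are 1-based. Bins were described by name for the 10 highest and 3 lowest scores of each list, and for genes of 6 lists. The planned comparison of bins by CTCF core could not be run without a genome, and promoters were searched in its place. Python 3.11.15, numpy 2.4.6, pandas 2.3.3, scipy 1.17.1 and matplotlib 3.10.9 were used. No test was made on boundaries. Alternatives varied the matching distance, the score minimum, runs, list length and the gene window.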

Additional observations from a re-analysis of the deposited data

How the results depend on the processing

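Of the recomputed values, 23 were labelled as unchanged and 35 as moved. A count was labelled unchanged when it stayed within a factor of 1.5, so the labels for counts rest on no interval. Thus the change from 162 to 122 wild-type members was labelled unchanged, while its share, from 40.5% to 30.5%, was labelled moved. The order of the genotypes turned in 3 cases. With the 400 highest scores of each list the unmatched share below 80 Mb was 39.8% in wild type against 37.1% in EACBE-/-; gene starts counted with 1 bin on each side were more frequent in wild type; and matching at the same bin put the wild-type median score at 0.4414 against 0.4405. Counts and shares of members followed the matching distance. Requiring the same bin gave 268 wild-type members (67.0%) and 75.2% of the EACBE-/- list. Matching within 40 kb gave 30.5% and 47.7%, and within 100 kb 61 members (15.3%) in wild type and 176 (33.0%) in EACBE-/-. With scores at or above the median of all listed, 57 (27.7%) and 112 (42.9%) remained unmatched. Counting runs within 1 bin once gave 35.3% in wild type, and counting all runs once gave 34.1% and 50.6%. In the count of all runs, a run with a matched bin was taken as matched. With the 400 highest scores of each list, an alternative added after seeing the data as was the count of all runs, wild type had 47.0% and EACBE-/- 191 members (47.8%) with a median score of 0.476. Gene starts lay in or 1 bin beside 26.5% of wild-type and 21.3% of EACBE-/- members, against 34.3% of all bins and 47.9% and 47.3% of matched boundaries, and protein-coding starts in 4.94% and 7.09% of the bins. The alternatives for CTCF cores in bins were not run, for lack of a genome. No paired analysis was possible because each genotype had 1 Hi-C library and the repertoire shares were given with no test. With 1 library per genotype and unknown contact depth, no boundary can be called gained or lost.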
